A study of Mus musculus with 127 samples.

Results

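Cell25 is 1 of 10 F123 mouse embryonic stem cell nuclei that were cut into consecutive thin slices, called nuclear profiles, so that DNA could be placed along the cutting direction. It was taken from the series because its 2 deposited position files together held the most rows of any nucleus, 190076 windows of 10 kb, against 161075 in Cell28, the next nucleus. The nucleus was thus chosen by a measured value, its number of rows, which is given here as a description only. On the 19 autosomes, which all later values concern unless stated, Cell25 had 172914 window positions out of 1132635 in the 10 nuclei. File 0 gave 79204 of them and file 1 gave 93710. File 0 covered 32.2% of the autosomal windows and file 1 covered 38.1%, against 7.99% to 28.2% and 10.5% to 33.0% in the corresponding files of the other 9 nuclei. The union of both files covered 51.9% of the autosomes in Cell25, against 19.05% to 47.1% in the other nuclei.

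In genome architecture mapping, loci that lie close together in the nucleus tend to be caught in the same thin slice, and a chromosome is read as a path by following which slice holds each stretch of it. When consecutive slices come from a single nucleus, their order gives a coordinate along the cutting direction. In interphase nuclei each chromosome occupies a territory of its own, so neighbouring stretches are usually close in space while a long chromosome can still cross much of the nucleus. F123 cells derive from a cross of CAST and 129 mice, and the maternal and paternal copies of a chromosome therefore differ at many sequence variants.

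Cell25 was sampled with 15 profiles and the other 9 nuclei with 7 to 23 profiles, whose DNA went through whole genome amplification before sequencing (HiSeq X). The 10 nuclei carry the same labels, CAST x 129 strain and embryonic stem cell, with no treatment, after passages on plates without feeder fibroblasts. The profile titles begin with B18F for Cell25 and 5 other nuclei and with B16F for 4 nuclei, and the labels do not say what this prefix stands for. The series also has 1 negative and 4 positive controls, which have no positions and entered no comparison. Each nucleus is a single sample, so p-values measure only the spread between these 10 nuclei, and no label says that they came from separate cultures. Because the files hold genomic positions and no expression, the labelled cell type could not be checked against marker genes. No read counts are given, so the sequencing depth behind a window is unknown. The files do not name the unit of the axis or its direction, and the sources used here do not say whether files 0 and 1 stand for the parental copies.

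Positions in Cell25 ran over 2.8 axis units on a grid whose step was 0.2, with 15 grid positions for 15 profiles. A grid position is called a slice below and numbered from the low end of the axis. The counts did not match in every nucleus, Cell18 having 17 grid positions for 16 profiles and Cell38 having 11 for 10. Whether each grid position is 1 profile was not tested. In all, 68.5% of the window positions lay on the grid and the others lay between grid positions. In 4 slices the windows were many, and their places on chromosome 2 carry much of what follows, so 1 promoter lying in each is shown. They belong to genes of the families and single genes followed on that chromosome, and were chosen after their positions were seen because the window of the promoter held the identical position in both files. Each promoter covers 250 bases before the gene start in lower case and the 50 bases after it in capitals, on the plus strand, as given by RefSeq for GRCm38.p6 (primary chromosomes as in mm10). Defb20, a beta-defensin gene, starts within chr2:152476813-152477112 in slice 6. Pax6, the eye and forebrain transcription factor, starts within chr2:105668646-105668945 in slice 9. Lcn3, a lipocalin gene, starts within chr2:25765283-25765582 in slice 12. Scn2a, a neuronal sodium channel subunit, starts within chr2:65620519-65620818 in slice 13.
Defb20 promoter: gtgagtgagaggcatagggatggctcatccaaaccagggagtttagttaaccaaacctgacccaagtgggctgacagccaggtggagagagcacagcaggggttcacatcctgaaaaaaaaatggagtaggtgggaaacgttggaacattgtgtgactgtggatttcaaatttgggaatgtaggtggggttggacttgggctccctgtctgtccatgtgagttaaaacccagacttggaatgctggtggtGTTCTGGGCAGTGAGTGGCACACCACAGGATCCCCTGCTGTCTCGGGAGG
Pax6 promoter: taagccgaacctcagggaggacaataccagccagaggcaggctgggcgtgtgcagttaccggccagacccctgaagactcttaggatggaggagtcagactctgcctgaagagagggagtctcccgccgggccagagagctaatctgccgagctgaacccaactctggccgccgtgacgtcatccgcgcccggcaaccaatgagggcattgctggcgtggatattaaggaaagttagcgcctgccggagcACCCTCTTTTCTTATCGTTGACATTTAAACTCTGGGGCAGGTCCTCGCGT
Lcn3 promoter: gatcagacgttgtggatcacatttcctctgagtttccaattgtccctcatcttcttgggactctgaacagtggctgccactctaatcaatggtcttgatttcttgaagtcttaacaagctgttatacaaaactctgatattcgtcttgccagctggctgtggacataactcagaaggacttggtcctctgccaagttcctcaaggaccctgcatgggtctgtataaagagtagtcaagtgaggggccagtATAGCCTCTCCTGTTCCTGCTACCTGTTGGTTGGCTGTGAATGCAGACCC
Scn2a promoter: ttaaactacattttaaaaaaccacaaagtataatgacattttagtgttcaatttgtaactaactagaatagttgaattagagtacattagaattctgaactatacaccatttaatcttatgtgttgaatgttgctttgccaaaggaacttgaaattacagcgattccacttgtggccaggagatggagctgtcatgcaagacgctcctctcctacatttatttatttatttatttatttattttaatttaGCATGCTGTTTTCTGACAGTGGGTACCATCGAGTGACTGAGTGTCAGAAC

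The slices of Cell25 were filled very unevenly. Slices 6, 9, 12 and 13, at positions 2.32, 2.92, 3.52 and 3.72, held 74.5% of all windows on the grid, where equal filling of 15 slices would put 26.7% in 4 of them. In file 0 slice 6 held 11548 windows, slice 9 held 10943, slice 12 held 8211 and slice 13 held 10757. In file 1 the same slices held 12095, 12459, 9943 and 12310 windows. The other 11 slices held between 631 and 2072 windows in a file, and both files ranked the slices alike in that the same 4 stood apart. The other nuclei had 7 to 23 grid positions, so equal filling would put 17.4% to 57.1% in 4 of their slices. Their 4 fullest slices held 45.1% to 90.2% of the grid windows, above equal filling in each nucleus. Uneven filling as such was thus not particular to Cell25. Relative to its own equal filling, no other nucleus held as large a share in 4 slices, but this ratio is capped by the number of grid positions. Cell26, with 7 positions and 57.1% under equal filling, held 88.5% in 4 slices and could not reach the ratio of Cell25. The ratio therefore does not set Cell25 apart. The fullest slice of Cell25 held 17.2 times the windows of its emptiest, inside the 4.06 to 89.7 times of the other nuclei.

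Windows in the 4 well-filled slices formed continuous stretches of genome. When 2 neighbouring 10 kb windows were both on the grid of a file, the second shared the slice of the first in 76.0% to 85.3% of pairs for the well-filled slices. For the 11 sparse slices this share was 4.04% to 14.4%. Relative to the share of all grid windows that a slice held, neighbours were in the same slice 3.94 to 5.13 times as often in the well-filled slices and 2.63 to 8.48 times as often in the sparse ones. Neighbouring windows thus stayed together more often than the slice sizes alone give in every slice of both files, and long stretches could be followed in 4 of 15 slices. The part that the yield of each profile has in this was not tested.

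**Figure D1:**
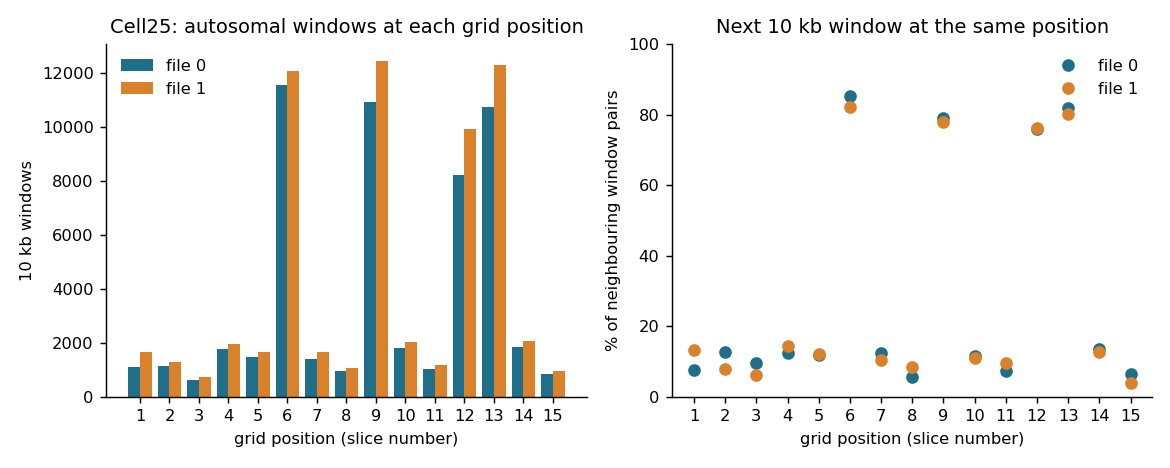
Number of autosomal 10 kb windows of Cell25 at each of the 15 grid positions in file 0 and file 1 (left, bars), and percent of neighbouring window pairs that lie in the same slice (right, points). Slices 6, 9, 12 and 13 hold 8211 to 12459 windows per file and the others 631 to 2072, and the same 4 slices stand at 76.0% to 85.3% on the right.

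Paths were followed in bins of 250 kb, each placed at the mean position of its windows where it held at least 3. This placed 8172 bins in file 0 and 8795 bins in file 1, with a median of 8 and 9 windows per bin. The median step between adjacent bins was 0.219 axis units in file 0 and 0.214 in file 1, about the width of 1 grid step. Bins of different autosomes lay on average 0.418 units apart in file 0 and 0.405 units apart in file 1. A bin was given the slice that held more of its grid windows than any other slice, with ties going to the slice nearest the bin's mean. This need not be a majority, so the mean position of a bin can lie away from its slice. Bins of the well-filled slices made up 78.3% of the bins in each file, since a sparse slice seldom led in a bin.

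Neighbouring bins changed slice in 57.5% of pairs in file 0 and 57.0% in file 1. The changes were of 1 or 2 slices in 17.3% and 16.8% of all pairs, of 3 to 5 slices in 25.8% and 25.5%, and of 6 or more slices in 14.4% and 14.7%. By the slice given to each bin, the path of Cell25 thus alternated between stays within a slice and changes of slice, many counted as several slices. The well-filled slices had 78.3% of the bins in each file, and sparse slices lie between most of them. A change between well-filled slices is therefore mostly counted as several slices. The part of this spacing in the sizes of the changes was not tested. The mean position of a bin need not move as far as its slice, the median step being 0.219 and 0.214 axis units. With at least 5 windows per bin the share of changes, averaged over the files, was 52.0%. Chromosomes 13, 2 and 11 changed slice least in file 0, in 41.3%, 42.5% and 45.6% of pairs, and chromosomes 14, 7 and 13 least in file 1, in 44.9%, 46.3% and 47.8%. Chromosomes 10 and 3 changed most in file 0, in 78.7% and 77.3% of pairs, and were among the 3 most changing in file 1, in 72.4% and 73.7%, with chromosome 19 at 74.9%. Chromosomes 3 and 10 were also thinly covered, with 20.4% and 21.05% of their windows placed in file 0 and 27.4% and 28.6% in file 1, so the part of coverage in their frequent changes was not tested.

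The autosomes of Cell25 differed in which well-filled slice held them. Chromosome 9 was concentrated in slice 13, with 44.8% of its grid windows there in file 0 and 54.5% in file 1. Chromosome 17 also favoured slice 13, with 32.2% and 42.2%. Chromosomes 14, 5 and 16 had slice 9 as their leading slice, chromosome 14 with 36.5% in file 0 and 52.0% in file 1, chromosome 5 with 31.9% and 51.5%, and chromosome 16 with 32.6% and 42.4%. Chromosome 15 led in slice 6, with 36.0% and 38.1%, and chromosome 10 in slice 12, with 27.5% and 39.3%. Each of these chromosomes had the same leading slice in both files. Many windows are listed in both files, often at identical positions, and their part in this agreement was not tested.

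Other chromosomes had a different leading slice in each file. Chromosome 4 had 31.6% of its grid windows in slice 6 and 22.3% in slice 13 in file 0, and 16.2% and 34.1% in file 1. Chromosome 12 led in slice 6 with 25.9% in file 0 and in slice 13 with 30.9% in file 1. On chromosome 5 slice 9 led in both files, but slice 13 held 30.2% in file 0 and 13.5% in file 1. The mean position of an autosome ranged over 2.84 to 3.09 in file 0 and over 2.75 to 3.10 in file 1, a small part of the 2.8 units of axis, each autosome being spread over several slices.

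**Figure D2:**
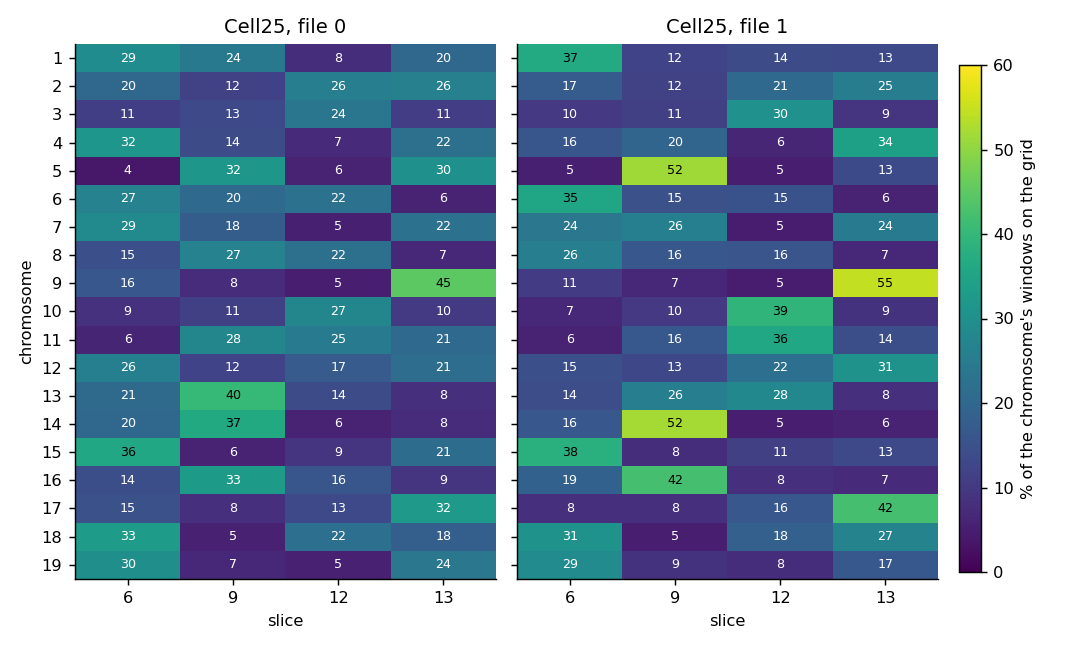
Percent of each autosome's grid windows in slices 6, 9, 12 and 13 of Cell25, for file 0 (left) and file 1 (right), with the rounded value in each cell. Chromosome 9 stands out in slice 13 (44.8% and 54.5%) and chromosomes 5 and 14 in slice 9, while chromosome 2 is spread over all 4 slices.

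A run of bins in the same slice, with gaps of up to 1 Mb, is called a segment. Most segments were 1 bin long, 76.6% of 4695 segments in file 0 and 76.7% of 5009 in file 1. Segments of at least 5 bins numbered 322 in file 0 and 331 in file 1, and each of them lay in a well-filled slice. They held 32.1% of the located bins of file 0 and 32.4% of file 1. In the 18 files of the other nuclei such segments held 3.65% to 35.9% of bins, with a median of 15.1%, and the 2 files of Cell39 alone exceeded Cell25. Cell39 also had 90.2% of its grid windows in its 4 fullest slices, and the part that the number and filling of slices have in this share was not tested.

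The longest stay of Cell25 was on chromosome 4 in file 1. It ran over 11.75 Mb, chr4:15250001-27000000, through 46 bins of slice 9, with Prdm13, which encodes a transcriptional regulator of neural tissue, nearest its midpoint. In file 0 the same stretch had 42 located bins, of which 37 were in slice 9. The next longest by bins was on chromosome 2, chr2:105000001-111750000 in file 0 and chr2:105250001-112000000 in file 1, both of 6.75 Mb in slice 9 and centred near Mettl15, a mitochondrial ribosomal RNA methyltransferase gene. This segment contains Pax6, whose promoter is shown above. A 6.25 Mb stay in slice 9 on chromosome 16 was likewise present in both files, at 38500001 to 44750000 in file 1 and 38250001 to 44500000 in file 0, around Lsamp, a neuronal cell adhesion gene.

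The remaining named segments were in file 1. On chromosome 14 a stay of 6.50 Mb in slice 9 had Ebf2, a transcription factor of brown fat and neural development, near its middle, and 17 of 23 bins located there in file 0 shared the slice. A stay of 6.25 Mb near the end of the same chromosome, around the receptor gene Gpr18, had 18 of 23 bins in slice 9 in file 0. On chromosome 5 the stay of 5.5 Mb around Ldb2, which encodes a LIM domain binding protein, had 19 of 20 bins in slice 9 in file 0. The stay of the same length around Stx18, a syntaxin of the endoplasmic reticulum, had only 13 of 22. The longest stay in slice 13 was 5.5 Mb on chromosome 4 around Ipp and held 107 protein-coding genes, 19.5 per Mb, against 34 genes or 2.89 per Mb in the 11.75 Mb stay on the same chromosome. For 19 of 21 bins located in file 0 over the Ipp stay the slice was also 13.

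Long segments recurred between the files. Of the 322 long segments of file 0, 223 (69.3%) were covered over at least 50% of their length by long segments of file 1 in the same slice. In the other direction this held for 215 of 331 (65.0%). The files share windows, many at identical positions, and the part of these in the recurrence was not tested. Long segments covered 41.3% of chromosome 2 in file 0, more than on any autosome but chromosome 13, and 34.5% in file 1, where 7 autosomes had more. Chromosome 13 had 46.1% and 35.7%, while chromosome 3 had 5.94% and 13.4%, and chromosome 10 had 6.70% and 11.3%.

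Chromosome 2 lay toward the high end of the axis on average. Its mean position was 3.07 in file 0, rank 18 of 19 autosomes from the low end, and 3.01 in file 1, rank 15 of 19. It stood 4.83% of the axis above the mean of the other autosomes in file 0 and 2.86% in file 1, 3.84% on average. Its windows were spread over all 4 well-filled slices, with 20.3%, 11.9%, 25.6% and 26.2% in slices 6, 9, 12 and 13 in file 0 and 17.5%, 11.5%, 20.6% and 25.3% in file 1. The range between the 10th and 90th percentiles of its bins was 1.09 axis units in file 0 and 0.978 in file 1, or 109% and 100% of the same range over all autosomal bins.

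Along its length chromosome 2 passed from high to low slices and partly back. In blocks of 20 Mb the mean position was 3.32 in file 0 and 3.18 in file 1 over the first block, which begins at the centromeric end, and decreased block by block in each file to 2.71 and 2.79 at 120 to 140 Mb. It was then 2.98 and 2.87 at 140 to 160 Mb and 2.99 and 3.04 at 160 to 180 Mb. The slice that dominated changed accordingly. Slice 12 held 65.8% of the grid windows in file 0 and 49.3% in file 1 at 20 to 40 Mb. Slice 9 held 36.5% and 32.6% at 100 to 120 Mb. Slice 6 held 66.3% and 49.9% at 120 to 140 Mb, and slice 13 held 45.0% and 50.4% at 160 to 180 Mb. The means of bins before and after the chromosome's midpoint differed by 9.33% of the axis, averaged over the files, which ranked 9 of 10 nuclei from the smallest, within the range of 0.645% to 11.9% in the other nuclei.

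Changes of position on chromosome 2 were measured between neighbouring segments of at least 3 bins. There were 61 such pairs of segments in file 0 with a median difference of 0.219 axis units, and 51 in file 1 with a median of 0.178. Pairs whose 2 segments lay in the same slice, parted by shorter segments, are included. These are thus not counts of slice changes. The largest in file 0 was 0.952 units, from 2.38 in slice 6 at chr2:123000001-125250000 to 3.33 in slice 13 at chr2:125750001-126750000, and the nearest gene to the boundary was Cep152, which encodes a centrosomal scaffold of centriole duplication. Over the same 2 stretches file 1 changed by 0.817 units in the same direction. The largest change in file 1 was the same move with slightly different edges, 0.917 units, nearest to Secisbp2l, a selenocysteine insertion sequence binding protein gene. File 0 changed there by 0.830 units.

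This excursion to slice 13 was short. The next segments were back in slice 6, from 130000001 in file 0 and from 129750001 in file 1, changes of -0.891 and -0.833 units whose boundaries both lie nearest to Spdye4c, a gene of the Speedy/RINGO family of cell cycle regulators. The other large changes in file 0 were at Rrbp1, the ribosome binding protein of the endoplasmic reticulum (-0.941, and -0.623 in file 1), and at Srsf6, a splicing factor gene (-0.927, and -0.355 in file 1). A further change lay at Zfp385b, a zinc finger gene (0.857, and 0.713 in file 1). In file 1 the others were at Pmepa1, a transmembrane regulator of TGF-beta signalling (-0.900), Slx4ip, a partner of the SLX4 nuclease scaffold (0.820), and Sestd1, a SEC14 domain gene (0.546). File 0 changed there by -1.02, 1.12 and 0.601 units. The sign was the same in the other file in each case, but a stretch rested on as few as 1 located bin there and the files share many windows at identical positions, whose part was not tested. The 10 boundaries also name some moves from both files, as at Cep152 and Secisbp2l, at Spdye4c, and at Zfp385b and Sestd1, and are not independent. The segments on either side of the Pmepa1 and Slx4ip boundaries were 6.5 and 6 Mb apart, so these boundaries are placed only to within that distance. At Spdye4c the segments were 3.25 Mb apart in file 0 and 2.75 Mb in file 1, at Sestd1 2.5 Mb and at Zfp385b 1.5 Mb. Each named gene is the one nearest the middle of such a gap, and segments of fewer than 3 bins in between were passed over.

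Gene families of chromosome 2 are given by the position of their bins. The sodium channel cluster of 5 Scn genes, which encode the voltage-gated channels of excitable cells, occupied 3 bins, and all 3 lay in slice 13 in both files, at 3.44 to 3.66 in file 0 and 3.34 to 3.46 in file 1. Scn7a, a sodium-sensing member, had 9 placed windows in file 0 with a mean of 3.72 and 11 in file 1 with a mean of 3.47. The 11 lipocalin genes (Lcn), which encode carriers of small hydrophobic molecules, spanned 5 bins, of which 4 were located in file 0 and 5 in file 1. Slice 12 was the slice of 3 of them in each file, and their positions ran over 3.21 to 3.37 in file 0 and 2.88 to 3.34 in file 1.

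Beta-defensin genes (Defb), which encode antimicrobial peptides, lay low, with 2 bins at 2.44 and 2.73 in file 0 and at 2.47 and 2.62 in file 1. The Wfdc genes of whey acidic protein type protease inhibitors lay high, with 2 bins at 3.24 and 3.58 in file 0 and 3.64 and 3.67 in file 1. The bin of Wfdc2 differed by 0.402 units between the files, the lower value being that of file 0. The Hoxd cluster of developmental transcription factors straddled 2 bins. The bin of Hoxd13 to Hoxd4 was at 2.98 in slice 9 in file 0 and at 2.73 in slice 12 in file 1, and the bin of Hoxd1 was at 3.30 and 3.19, in slice 12 in both files. Within the cluster the files agreed at Hoxd8, whose single window lay at 3.52 in both, and differed at Hoxd4, with 1 window at 2.92 in file 0 and 1.79 in file 1, and at Hoxd11, at 2.18 over 2 windows and 1.32 in 1 window. Hoxd13 and Hoxd12 had placed windows in file 0 only. The 287 olfactory receptor genes filled 31 bins between 36376778 and 112157007 of chromosome 2, of which 27 were located in file 0 and 26 in file 1, and these ran over nearly the whole path, from 2.43 to 3.51 and from 2.32 to 3.52. Of the 11 cystatin genes, 9 shared a bin that was not located in file 0 and stood at 2.88 in file 1.

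Among single genes of chromosome 2, Pax6 stood at 2.79 in file 0 with 20 windows in its bin and at 2.70 in file 1 with 13, both in slice 9. Notch1, a receptor of cell fate signalling, was at 2.70 and 2.47, with 8 and 4 windows. Gnas, an imprinted gene of a G protein subunit, was at 2.58 and 2.76, with 7 windows in each file. Nnat, an imprinted neuronal gene, was at 2.87 and 2.89 with 15 and 20 windows. Dnmt3b, a de novo DNA methyltransferase active in stem cells, differed more, at 2.85 with 11 windows and 2.27 with 4, and so did the cytokine gene Il1b, at 1.85 with 3 windows and 2.81 with 9. The bins of Foxa2 and Bmp7 held the 3 windows needed for a position in file 0 only, and those of Zeb2 and Cdh4 in file 1 only, although Cdh4 and Zeb2 themselves had 5 and 2 placed windows in file 0 and Bmp7 had 1 in file 1. Of the pluripotency regulators on other autosomes, Pou5f1 was at 2.89 and 3.02, Nanog at 2.23 and 2.62, Sox2 at 2.51 and 2.99, Esrrb at 2.36 and 2.89, and Zfp42 at 2.96 and 2.67, with 3 to 13 windows in a bin and a different slice in each file for all 5. Of all bins placed in both files 56.0% had the same slice and the others did not, so differing slices were common. The bin of Klf4 was located in file 0 only, at 2.74.

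The files of Cell25 shared 45126 windows, 57.0% of file 0 and 48.2% of file 1. Of these, 22845 (50.6%) had identical positions, equal within 1e-06 axis units, in both files. The mean distance between the files over all shared windows was 0.191 units. Windows of different autosomes, compared across the files, were 0.734 units apart, so the mean distance was 0.260 of that. Among the windows that were not identical the median distance was 0.2 units, 1 grid step, and the mean was 0.387. In all, 75.5% of shared windows were at most 1 grid step apart, and 2537 (5.62%) were 1 unit or more apart, up to 2.8 units, the whole axis.

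Nearly all identical positions lay on the grid. Where a window lay on the grid in both files, which was the case for 24747, the position was identical in 92.3%. In 15699 windows 1 of the files had a position between grid positions, and in 4680 both had. Where only 1 file is on the grid the positions cannot be identical, by definition. Windows of the 4 well-filled slices were in the same slice in the other file in 93.0% to 95.2% of cases, counted from either file, where both lay on the grid. For the sparse slices this share was 67.9% to 91.4%, lowest in slices 8 and 11. By chromosome, identical positions made up 41.0% of shared windows on chromosome 1 to 56.4% on chromosome 10. The mean distance was smallest on chromosome 2, at 0.155 units, and largest on chromosome 4, at 0.222.

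**Figure D3:**
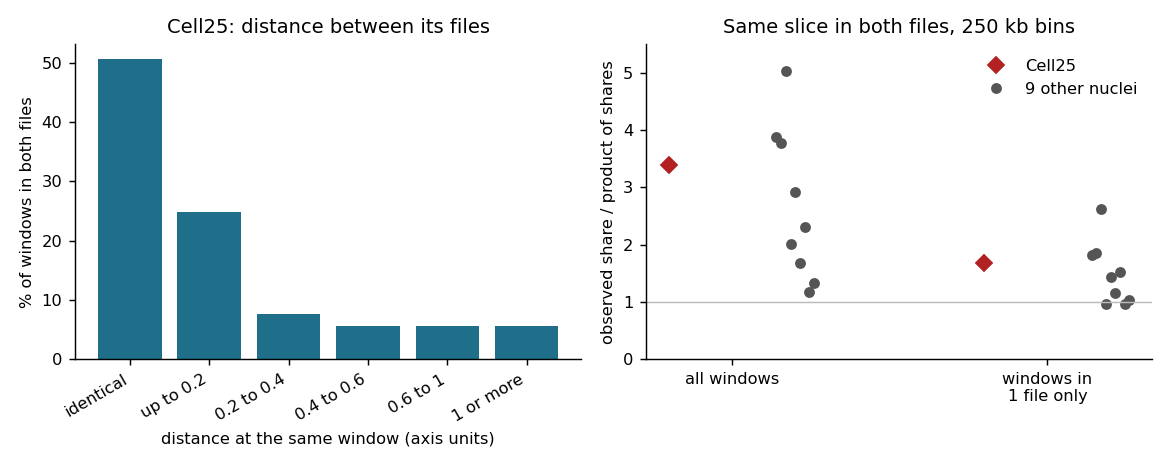
Distance between the positions of a window in file 0 and file 1 of Cell25, as percent of the 45126 shared windows (left), and the share of 250 kb bins in the same slice in both files divided by the product of the files' slice shares (right), for Cell25 (diamond) and the 9 other nuclei (circles), with all windows and with windows of 1 file only. Identical positions make up 50.6% on the left, and Cell25 stands at 3.39 with all windows and 1.68 with windows of 1 file only.

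At 250 kb, 7358 bins were placed in a slice in both files, and 56.0% of them were in the same slice. The product of the slice shares of the 2 files gives 16.5%, so agreement was 3.39 times that. Shared windows enter both sides of this comparison. With all windows present in both files left out, so that no position could be counted in both, 2417 bins remained and 26.7% were in the same slice, 1.68 times the 15.9% given by the shares. The distance between the files, relative to that between different autosomes, was 0.591 with all windows and 0.928 without the shared ones. In the other nuclei the same ratios were 0.478 to 0.899 and 0.695 to 1.10, so Cell25 lay inside their range in both.

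The agreement differed along the genome. Chromosome 2 had the highest share of bins in the same slice, 66.9%, followed by chromosome 13 with 66.7% and chromosome 7 with 64.6%, and chromosome 3 had the lowest with 36.1%. The rank correlation of the 2 files along the bins of a chromosome, given as a description over neighbouring and therefore dependent bins, was 0.733 on chromosome 2 over 550 bins and 0.379 on chromosome 14 over 377 bins. Without shared windows it was 0.300 on chromosome 2 over 155 bins and -0.105 on chromosome 18 over 71 bins, the highest and lowest of the 19 autosomes. Fewer windows remain per bin in that case, and the part of this loss in the lower values was not tested.

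Stretches where the files parted were short. Runs of bins at least 0.6 units apart in the same direction numbered 496, and the longest held 3 bins. They held 534 bins, where 7358 bins were placed in a slice in both files. Shared windows enter the means of both files here. With those windows left out there were 447 runs over 505 bins, where 2417 bins were so placed, and the longest held 4 bins. Fewer windows remain per bin and fewer bins are placed in that case, which limits how long a run can be. The part of this in the short runs was not tested. Among the 5098 bins placed in well-filled slices in both files, 1258 were in different ones, from 17.3% of such bins on chromosome 2 to 42.6% on chromosome 3. Runs of at least 3 bins with one and the same pair of different slices numbered 21, and 3 of them reached 5 bins or 1.25 Mb. The 3 were chosen after their values were seen. On chromosome 5, the stretch chr5:37500001-38750000 around Nsg1, a neuronal endosomal protein gene, was in slice 13 in file 0 at 3.32 and in slice 9 in file 1 at 3.03. On the same chromosome chr5:73000001-74250000, nearest to Lrrc66, showed the same pair of slices at 3.42 and 3.06. On chromosome 16, chr16:10500001-11750000 around Txndc11, a thioredoxin domain gene, was in slice 12 in file 0 at 3.29 and in slice 6 in file 1 at 2.68. Chromosome 2 had 1 such run, of 4 bins at chr2:162750001-163750000, in slice 6 in file 0 at 2.63 and in slice 13 in file 1 at 3.07, near Tox2, which encodes an HMG box transcription factor. It begins at the Srsf6 boundary, where the change in file 1 was the smallest of the 5 named for file 0.

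Set against the other 9 nuclei, Cell25 was not outermost in any of 8 measures fixed for the comparison. Each was tested with an exact two-sided permutation test of 1 nucleus against 9, whose smallest possible p is 0.1, so that no difference could pass a 0.05 threshold, and no adjusted p is therefore given. The median step between neighbouring bins, as a ratio to the distance between autosomes, was 0.525 in Cell25 and 0.568 ± 0.151 in the other nuclei (SD, n = 9), rank 4 from the low end (exact permutation p = 0.8). Neighbouring bins changed slice in 57.3% of pairs in Cell25 and 65.1% ± 10.97 in the others, rank 2 (exact permutation p = 0.5), with Cell39 alone lower at 41.3%. The span of a chromosome, the median over autosomes of the range between the 10th and 90th percentiles, relative to that of all bins, was 96.3% in Cell25 and 90.4% ± 12.01 in the others, rank 8 (exact permutation p = 0.4).

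The offset of chromosome 2 was 3.84% of the axis in Cell25 and 1.39% ± 3.96 in the others, rank 7 (exact permutation p = 0.7). As the direction of the axis may differ between nuclei, the size without its sign was also compared, 3.84% in Cell25 and 3.44% ± 2.13 in the others (exact permutation p = 0.9). The span of chromosome 2 was 104% in Cell25 and 99.4% ± 12.9 in the others, rank 8 (exact permutation p = 0.6). The distance at shared windows, relative to that between autosomes, was 0.260 in Cell25 and 0.307 ± 0.159 in the others, rank 5 (exact permutation p = 0.7). Identical positions made up 50.6% of shared windows in Cell25 and 49.0% ± 16.4 in the others, rank 5 (exact permutation p = 1). The median rank correlation of the files' paths over autosomes was 0.619 in Cell25 and 0.472 ± 0.187 in the others, rank 9 (exact permutation p = 0.4). All 8 differences were smaller than 1 SD of the other nuclei. With the most windows of the series, Cell25 thus stood inside the spread of the other nuclei in its steps, spans, chromosome 2 position and file distances.

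**Figure D4:**
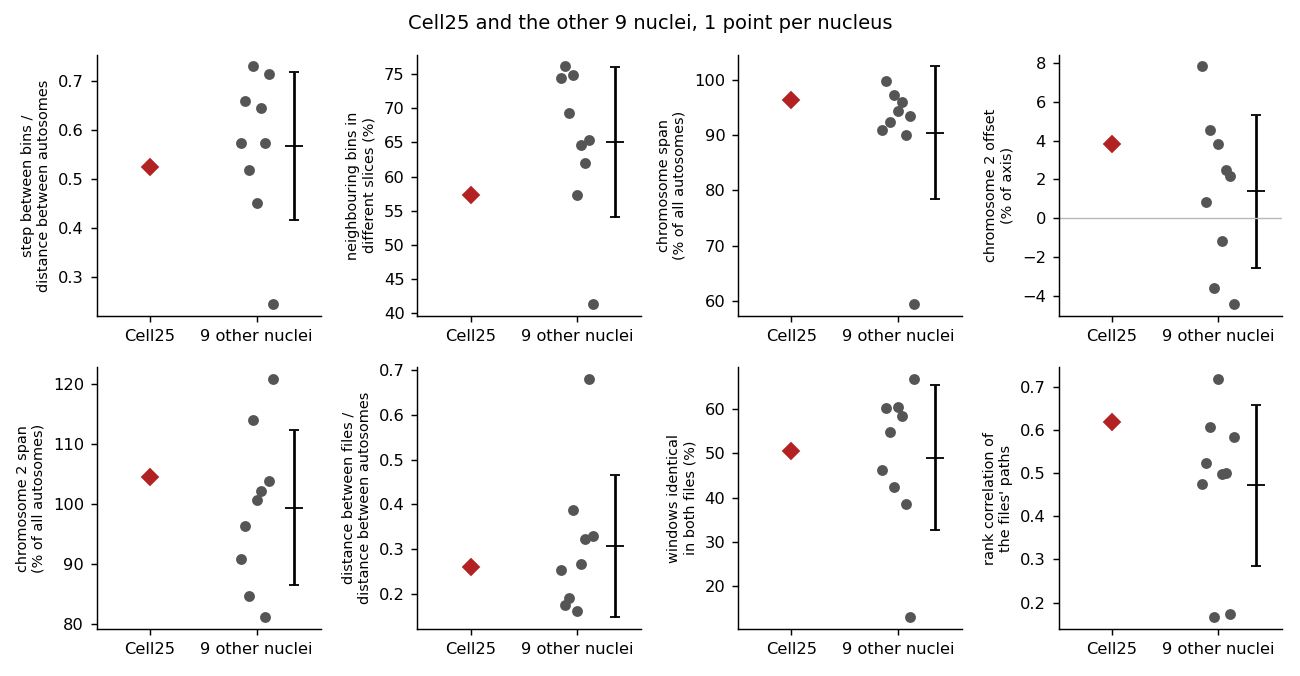
The 8 measures for Cell25 (red diamond, left of each panel) and the 9 other nuclei (grey circles, with their mean and SD beside them), 1 point per nucleus. Cell25 lies within the range of the other nuclei in each panel, for example 57.3% against 41.3% to 76.1% for bins changing slice.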

How the data were processed

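DNA of single nuclear profiles was amplified and sequenced, per the labels' protocols. Bowtie2 2.3.5, Picard, Trim Galore 0.6.4 and the mm10 build are listed in the submitters' processing notes, with no order. The sources used here do not say how reads became positions. The deposited tables hold 10 kb windows and, per the file headers, a zaxis position, in a unit that is not named and is no count. The 20 files were read as deposited and grouped by nucleus from the labels.

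Windows on the 19 autosomes were averaged in bins of 250 kb with at least 3 windows. A bin's slice was the grid position holding more of its windows than any other, with ties going to the one nearest the bin's mean. Segments bridged gaps of up to 1 Mb. A grid position was accepted within 1e-04 grid steps and identical positions within 1e-06 units. Chromosome length was the end of the last window located in any nucleus. Each nucleus gave 1 value per measure, the mean over its files where both give one, and Cell25 was compared with the other 9 by an exact permutation test over 10 arrangements. No test across many features was made.

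Genes and promoters came from RefSeq for GRCm38.p6. Of 360 listed genes on chromosome 2, 307 had at least 1 promoter in that table. The named genes are those nearest to the boundaries of the 5 largest changes of chromosome 2 in each file and to the midpoints of the 10 longest segments, and families and single genes fixed by name. Cell25, the gene lists and the measures were chosen with earlier results of these data known. The computation was tested on simulated data with planted slices. Python 3.11.15, numpy 2.4.6 and pandas 2.3.3 were used.

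Located windows serve as the measure of depth, since no read counts are given, and no counting interval can be computed. Alternatives were other bin sizes and window minimums, the median of a bin, windows between grid positions or in both files left out, the outermost slices left out, single files, files thinned to 19667 windows, directly adjacent bins, the nuclei with the same title prefix, and each other nucleus left out.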

Additional observations from a re-analysis of the deposited data

Results flagged for a closer look

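Cell25 itself was not flagged in any of the 8 measures. Among the 10 nuclei, 3 values lay far from the others, their gap to the nearest nucleus being large for the whole range. The chromosome span of Cell39 was 59.4%, against 96.3% in Cell25 and 90% in the nearest nucleus. The relative distance between the files of Cell38 was 0.679, against 0.260 in Cell25, and 13.04% of the shared windows of Cell38 had identical positions, against 50.6% in Cell25. Chance flags about 1 in 20 such groups, and 8 were examined.

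Cell25 also had windows outside the autosomes, which no comparison above uses. The X chromosome had 9802 windows, 4427 in file 0 and 5375 in file 1, with a mean position of 3.12 in each. The Y chromosome had 6920 windows, 3071 in file 0 and 3849 in file 1, with mean positions of 3.41 and 3.44. Both chromosomes are thus placed in both files of this nucleus.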

How the results depend on the processing

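Each of the 8 measures, as the value of Cell25 minus the mean of the other nuclei, was recomputed under 83 alternatives and with each other nucleus left out. The direction was the same in 82 of the 83, and their lowest exact permutation p was 0.2. The exception was the rank correlation of the files' paths, 0.148 higher in Cell25 with all windows and -0.0828 with windows in both files left out (0.117 in Cell25, 0.1996 in the others), so its direction depends on windows listed in both files. The difference in identical windows, 1.63 percentage points, ran from -2.87 without Cell38 to 3.85 without Cell39, so its sign rests on Cell38, and was 9.70 with windows between grid positions left out (92.3% in Cell25, 82.6% in the others). The difference in file distance, -0.0473, was -0.0008 without Cell38, -0.121 with windows between grid positions left out and -0.0101 in 250 kb bins without windows of both files. Without Cell39, the chromosome span difference of 5.99 points was 2.12, the step difference of -0.0423 was -0.0826 (-0.0222 without Cell20, -0.0241 without Cell38, -0.134 with bin medians, -0.120 thinned, -0.0004 against nuclei of the same title prefix), and Cell25 had the lowest share of slice changes (exact permutation p = 0.111, the smallest 9 nuclei allow). The chromosome 2 span difference of 5.01 points became 25.8 with 1 Mb bins and ran from 2.74 without Cell28 and 3.17 without Cell19 to 7.67 without Cell39, and the slice change difference of -7.79 points became -18.8 with files thinned to 19667 windows and -0.863 against nuclei of the same title prefix. Over the 83 alternatives the differences ran from -0.134 to -0.0004 for the step, from -18.8 to -0.863 points for slice changes, from 2.18 to 10.9 for chromosome span, from 0.399 to 3.72 for the chromosome 2 offset, from 2.67 to 25.8 for its span, from -0.121 to -0.0101 for file distance, from 0.556 to 9.70 for identical windows and from -0.0828 to 0.268 for the path correlation, and many moved by over 1.5 times. The cause of these shifts was not tested. Cell25 was outermost in 6 of the 83, namely 3 of chromosome span, 1 of chromosome 2 span and 2 of the path correlation.

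No paired analysis was possible because Cell25 is a single nucleus and the profile numbers of different nuclei mark consecutive slices, not matched samples. Limits are that a sample of 1 nucleus against 9 cannot reach p below 0.1, that read depth is unknown, that no segment of 5 or more bins was found in 11 of the 15 slices, and that the meaning of the files is not given.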

Other observations

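Gene content differed little between the slices of Cell25, given here as values with no test. Bins of slice 13 held 9.70 protein-coding genes per Mb in file 0 and 9.67 in file 1, the most of the 4 well-filled slices. Bins of slice 12 held the fewest, 8.55 and 8.30, with slice 6 at 8.71 and 8.52 and slice 9 at 8.59 and 8.68. All located bins held 8.89 and 8.78. Bins without any gene made up 32.1% and 33.1% in slice 13 and 36.4% in slice 12 in each file. Bins of slices 6 and 13 also held the most windows (part in gene content not tested), 11.6 and 10.9 per bin in file 0 and 12.5 and 12.2 in file 1.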
